A study of Mus musculus with 6 samples.

Results

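The genes described here encode the proteins that tie the stereocilia of a hair cell (HC) into one bundle, and that are affected in Usher syndrome, an inherited loss of hearing and sight. They were chosen by name. Of 20259 genes that the array's annotation table gave a transcript cluster of their own, 8 belong to this set: *Cdh23*, *Pcdh15*, *Ush1c*, *Ush1g*, *Dfnb31* (current symbol *Whrn*), *Clrn1*, *Gpr98* (current symbol *Adgrv1*) and *Pdzd7*. Each of the 8 had 1 such cluster, so no choice between clusters was needed. A cluster collects probes from the exons of a gene, and its value does not tell isoforms apart. The RNA was that of cochlear epithelium from mouse explants taken at E15.5, labelled wild type (the study's culture methods name *p27/GFP* transgenic embryos), that were cultured with 3.33 µM DAPT, a γ-secretase inhibitor that blocks cleavage of Notch receptors and of other γ-secretase substrates, or with the vehicle, 0.013% DMSO (control). Both media held EGF and FGF. The explants kept their mesenchyme and spiral ganglion in culture, and the epithelium of the whole duct was then freed with collagenase and dispase. Each of the 3 experiments had 1 DAPT pool and 1 control pool of explants, which gives 6 arrays. By the sample labels, culture lasted 23 hours for experiment 1, 19 hours for experiment 2 and 24 hours for experiment 3. The range in the study's text ends below the labelled times of experiments 1 and 3, and the labels are used here. Values are log2 signals, normalized by the authors, and differences are DAPT minus control within an experiment. The test was limma's moderated linear model over the 20259 genes, in which each experiment was a block.

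The hair bundle works as one unit because fine extracellular links join its stereocilia. The tip link is the filament that pulls on the mechanotransduction channel when the bundle bends. Its upper part is made of cadherin 23 and its lower part of protocadherin 15, and the scaffold proteins harmonin (*Ush1c*) and SANS (*Ush1g*) anchor it inside the stereocilium. Ankle links join the bases of growing stereocilia, and the adhesion receptor ADGRV1 and the scaffolds whirlin and PDZD7 belong to them. The bundle forms only after a cell has become an HC, and in the E15.5 cochlea HC formation has just begun.

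Genes of HCs and of supporting cells (SCs) differed between the groups. The lists counted here were chosen with earlier results of these data known. Several of their genes, such as *Pou4f3*, *Calb2*, *Ptprq*, *Jag1*, *Hey1* and *Sox2*, are in the study's own lists of DAPT-changed genes from these arrays. Their counts describe the arrays and are no independent check. Of 12 HC markers, 11 were higher with DAPT at an unadjusted p under 0.05 and 0 were lower, with a median difference of 0.72. Of 9 genes in a list of HC regulators, 8 were higher and 0 lower, with a median of 0.70. That list also counts *Rasd2*, at 0.84, which the study lists as raised by DAPT on these arrays. A part of *Rasd2* in HC formation was not tested, and *Pou4f3* counts in both HC lists. Of 15 SC and pro-sensory genes, 11 were lower and 0 higher, with a median of −0.56. The mean log2 signal of 8 epithelial genes was between 10.30 and 10.91 in DAPT pools and between 10.43 and 10.89 in control pools. Their median difference was −0.09, and the keratin gene *Krt8* was lower by 0.28 (standard error 0.09, unadjusted p = 0.0186 in limma). Markers of other cells stood on the arrays too. The mean log2 signal of 14 neuronal genes was between 7.84 and 8.55 in DAPT pools and between 7.68 and 8.57 in control pools, and that of 13 mesenchymal genes between 8.69 and 9.43 and between 8.61 and 9.44. In both lists, and in both groups, the pool of experiment 1 was the lowest. Of 7 melanocyte genes, 4 were lower with DAPT at an unadjusted p under 0.05, with a median of −0.20. In each of the lists for epithelium, neurons, glia, mesenchyme, endothelium, macrophages and erythroid cells, at most 1 gene was higher and at most 1 lower at that level. In bulk tissue, more cells of a type and more RNA per cell cannot be told apart. On the whole array, 0 genes (0%) had an adjusted p under 0.05 in limma, and the lowest adjusted p was 0.0591. By the unadjusted p, 1067 genes (5.27%) were higher with DAPT and 525 (2.59%) were lower. In what follows a gene is therefore called higher or lower as a description, with its own unadjusted p.

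Promoter sequence is shown because several of the genes were higher together with DAPT. RefSeq's GRCm38.p6 table gave a window from 250 bases before to 50 bases after the start for 7 of the 8 genes, all but *Ush1g*. E-boxes are the sites of bHLH factors, among them ATOH1, without which HCs do not form. The E-box CAGCTG stood in the windows of *Pcdh15* and *Pdzd7* and in 16.3% of 32851 windows of all genes. The E-box CAGATG, searched on both strands and so also as CATCTG, stood in that of *Clrn1* and in 17.2% of all windows. Counted from the start, the match began at 8 in *Pcdh15*, at −66 in *Pdzd7* and at −140 in *Clrn1*. The windows of *Pcdh15* and *Pdzd7* belong to start sites inside these genes, not at their 5′ ends. The window of *Cdh23* held neither of these E-boxes. The general form CANNTG stood in 6 of the 7 windows, *Cdh23* included, and in 72.3% of all windows. TGGGAA, a core of RBPJ binding, TAATTA, a homeodomain core, and the X-box of RFX factors matched none of the 7 windows, where 25.6%, 5.29% and 0.07% of all windows held them. A match is a string of letters and no evidence of binding. The windows of the tip-link pair and of the 2 genes with an E-box beside them are printed from 5′ to 3′ on the gene's strand. Capitals mark only CAGCTG and CAGATG or CATCTG, and other CANNTG E-boxes are in lower case. They lie at chr10:60696441-60696740 on the minus strand (*Cdh23*), chr10:73821617-73821916 on the plus strand (*Pcdh15*), chr19:45045723-45046022 on the minus strand (*Pdzd7*) and chr3:58885163-58885462 on the minus strand (*Clrn1*).
Cdh23: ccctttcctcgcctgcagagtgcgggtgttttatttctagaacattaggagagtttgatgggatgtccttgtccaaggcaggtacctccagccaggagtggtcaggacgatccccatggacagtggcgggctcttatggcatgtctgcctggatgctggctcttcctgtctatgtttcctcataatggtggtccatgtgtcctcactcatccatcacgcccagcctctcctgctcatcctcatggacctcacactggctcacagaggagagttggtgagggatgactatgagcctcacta
Pcdh15: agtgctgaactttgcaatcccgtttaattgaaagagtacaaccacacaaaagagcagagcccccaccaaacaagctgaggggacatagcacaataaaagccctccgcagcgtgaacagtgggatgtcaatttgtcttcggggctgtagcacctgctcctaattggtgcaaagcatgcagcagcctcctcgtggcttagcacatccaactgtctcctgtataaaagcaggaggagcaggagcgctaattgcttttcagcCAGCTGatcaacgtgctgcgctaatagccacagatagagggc
Pdzd7: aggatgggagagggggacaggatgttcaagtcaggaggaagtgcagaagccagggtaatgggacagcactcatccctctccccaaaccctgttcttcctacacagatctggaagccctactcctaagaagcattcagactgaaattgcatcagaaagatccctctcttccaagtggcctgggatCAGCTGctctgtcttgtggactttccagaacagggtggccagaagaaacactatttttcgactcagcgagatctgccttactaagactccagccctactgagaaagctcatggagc
Clrn1: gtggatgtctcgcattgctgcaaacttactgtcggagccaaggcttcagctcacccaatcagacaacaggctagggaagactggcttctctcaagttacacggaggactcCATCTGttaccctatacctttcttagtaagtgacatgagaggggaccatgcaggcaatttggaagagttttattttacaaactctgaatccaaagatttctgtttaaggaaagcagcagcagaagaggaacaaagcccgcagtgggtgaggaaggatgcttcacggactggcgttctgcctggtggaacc

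*Cdh23*, which forms the upper part of the tip link, was higher with DAPT in every experiment and by nearly the same step. Its log2 signal was 9.16, 8.26 and 8.62 in the DAPT pools of experiments 1, 2 and 3, against 8.85, 7.89 and 8.20 in their control pools. The groups overlapped, because the control pool of experiment 1 lay above the DAPT pools of experiments 2 and 3, yet each DAPT pool exceeded its own control. The differences were 0.31, 0.36 and 0.42, with a mean of 0.36 (standard error 0.07), a 1.29-fold higher signal with a 95% interval of 1.135 to 1.46. The unadjusted p was 0.00283 and the adjusted p over all genes 0.322 in limma. Of all genes, 1.79% had a larger difference. The 3 control pools spread over 0.95 and thus by more than DAPT from control, and without the block the p was 0.261.

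*Pcdh15*, which forms the lower part of the tip link, had a smaller difference. Its signal was 8.06, 7.80 and 7.56 in the DAPT pools, against 7.97, 7.44 and 7.46 in the control pools. Each DAPT pool was above its control, by 0.09, 0.35 and 0.10. The step in experiment 2, the shortest culture, was thus the largest of the 3. The mean was 0.18 (standard error 0.09) with a 95% interval of −0.04 to 0.40, an unadjusted p of 0.0874 and an adjusted p of 0.699 in limma.

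Of the scaffolds of the tip link, *Ush1g* went with *Cdh23* and *Ush1c* did not. *Ush1g*, which encodes the ankyrin-repeat scaffold SANS, had 8.84, 8.49 and 8.62 in the DAPT pools, against 8.50, 8.33 and 8.40 in the control pools. Each DAPT pool lay above its own control, and the lowest DAPT pool was just below the highest control pool. The differences of 0.34, 0.16 and 0.23 gave a mean of 0.25 (standard error 0.08, unadjusted p = 0.0208, adjusted p = 0.492 in limma). When any single experiment was left out, its p lay above the threshold of 0.05, at 0.0672 without experiment 1, 0.0541 without experiment 2 and 0.0627 without experiment 3, and without the block it was 0.0707.

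*Ush1c* encodes harmonin, the PDZ-domain scaffold to which the tail of cadherin 23 binds. Its signal was 9.91, 9.35 and 9.16 in the DAPT pools, against 9.58, 9.65 and 9.64 in the control pools. The control pools differed by 0.07 at most, the narrowest control spread of the 8 genes, whereas the DAPT pools spread over 0.75, above the controls in experiment 1 and below them in experiments 2 and 3. The differences were 0.33, −0.29 and −0.47. Their mean of −0.15 (standard error 0.16) had a 95% interval of −0.54 to 0.25 and an unadjusted p of 0.398. Without experiment 1 the mean was −0.38, with an unadjusted p of 0.0103 in limma, and without experiment 3 it was 0.02. The direction for *Ush1c* is therefore not settled by these pools.

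**Figure D1:**
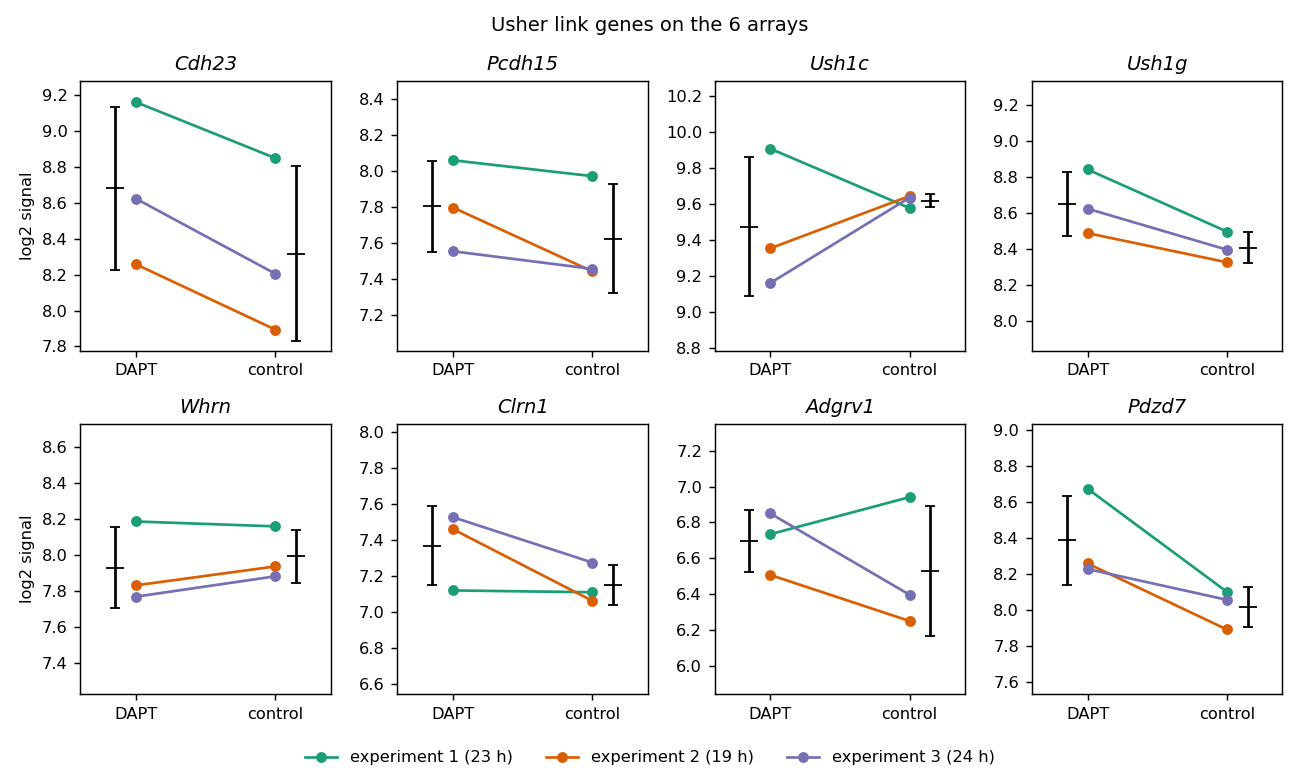
Log2 signal of the 8 Usher link genes on each array, with DAPT on the left and control on the right. Colored lines join the 2 pools of an experiment, black bars are the mean ± SD of 3 pools, and every panel spans 1.5 log2 units. The 3 lines of *Cdh23* run in parallel, while those of *Ush1c* cross and the 3 control pools lie within 0.07.

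Among the ankle-link genes, *Pdzd7* was the one whose groups separated. It encodes a PDZ-domain scaffold of the ankle-link complex. Its printed promoter window, at a start site inside the gene, holds CAGCTG, as 16.3% of all windows do, and a part of this site was not tested. Its signal was 8.67, 8.26 and 8.23 in the DAPT pools, against 8.10, 7.89 and 8.06 in the control pools. The lowest DAPT pool was above the highest control pool, and the 3 steps were 0.57, 0.37 and 0.17. The mean of 0.37 (standard error 0.10) equals a 1.29-fold higher signal with a 95% interval of 1.092 to 1.53. The unadjusted p was 0.01 and the adjusted p 0.408 in limma. Without the block the unadjusted p was 0.034, the one p of the 8 genes under 0.05 in that fit. The plain comparisons, which share no variance across genes, gave 0.0857 paired and 0.0789 one-way, above the threshold.

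*Whrn*, called *Dfnb31* in the set's older name, encodes whirlin, a scaffold of ankle links and of stereocilia tips. It had 8.19, 7.83 and 7.77 in the DAPT pools, against 8.16, 7.94 and 7.88 in the control pools. The steps of 0.03, −0.10 and −0.11 were small and of mixed sign. The mean was −0.06 (standard error 0.08) with a 95% interval of −0.25 to 0.12 and an unadjusted p of 0.438 in limma. *Adgrv1*, called *Gpr98* in the older name, encodes the very large adhesion receptor of the ankle links. Its signal was 6.73, 6.51 and 6.85 in the DAPT pools, against 6.94, 6.25 and 6.40 in the control pools. It was lower with DAPT in experiment 1, by 0.21, and higher in experiments 2 and 3, by 0.26 and 0.45. The mean of 0.17 (standard error 0.13) had an unadjusted p of 0.262, and without experiment 1 it was 0.35, with an unadjusted p of 0.0146.

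*Clrn1* encodes clarin-1, a tetraspan membrane protein that hair bundles require. It had 7.12, 7.46 and 7.53 in the DAPT pools, against 7.11, 7.06 and 7.27 in the control pools. In experiment 1 the pools were level, with a step of 0.01, and in experiments 2 and 3 the DAPT pool was higher by 0.40 and 0.25. The mean was 0.22 (standard error 0.10) with a 95% interval of −0.02 to 0.46 and an unadjusted p of 0.0662, which became 0.0161 without experiment 1. Averaged over the 6 arrays, *Pcdh15*, *Clrn1* and *Adgrv1* lay below 7.78, the median of such means over all genes, and the other 5 genes lay above it.

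Of the 8 genes, 3 were higher with DAPT at an unadjusted p under 0.05, *Cdh23*, *Pdzd7* and *Ush1g*, where 5.27% of all genes were. None was lower at that level, where 2.59% of all genes were. In all 3 experiments 5 of the 8 were higher, *Pcdh15* and *Clrn1* besides those 3, where 19.1% of all genes were, and 0 were lower, where 10.5% were. The other 3, *Ush1c*, *Whrn* and *Adgrv1*, did not go in 1 direction, as 70.4% of all genes did not. In 1 of the 8, *Pdzd7*, all DAPT pools lay above all control pools, where 4.94% of all genes had no overlap in this direction. The median difference of the 8 was 0.20, and 0.20, 0.31 and 0.20 within experiments 1, 2 and 3, while the median of all genes was 0.02. No gene of the 8 passed an adjusted p of 0.05. The count of 3 became 1 without the block, 2 in the plain paired comparison, where *Pdzd7* was lost, and 0 in the plain one-way comparison.

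**Figure D2:**
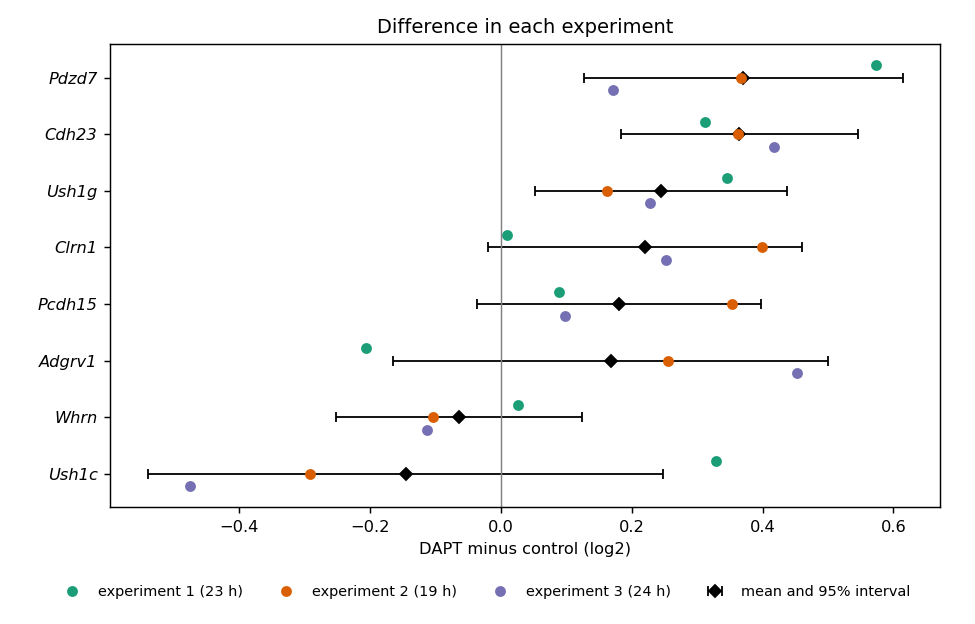
DAPT minus control (log2) for each Usher link gene, ordered by the mean. Colored points are the 3 experiments, diamonds the mean and bars its 95% interval from limma with the experiment as a block. The intervals of *Pdzd7*, *Cdh23* and *Ush1g* lie above 0, and the points of *Ush1c* span 0.80.

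Whether partners in one complex differed in their response was asked for 5 pairs of genes, by subtracting one difference from the other within each experiment. An exact sign-flip permutation test (two-sided) on 3 experiments cannot go below p = 0.25, so none of the pairs could pass. *Cdh23* exceeded *Pcdh15* by 0.22, 0.01 and 0.32, a mean of 0.18 ± 0.16 (SD, n = 3, exact p = 0.25, adjusted over 5 pairs 0.417). Between the scaffolds *Whrn* and *Pdzd7* the gap was −0.55, −0.47 and −0.28, a mean of −0.43 ± 0.13 (SD, n = 3, exact p = 0.25). *Pdzd7* thus stood further above its control than *Whrn* in 3 of 3 experiments. *Ush1c* minus *Ush1g* gave −0.02, −0.45 and −0.70, with a mean of −0.39 ± 0.35 (SD, n = 3, exact p = 0.25). The pairs *Ush1c* with *Whrn* and *Adgrv1* with *Whrn* had gaps of mixed sign, with means of −0.08 and 0.23 and exact p = 0.75 and 0.5 (n = 3 each).

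For *Cdh23*, *Pcdh15*, *Whrn* and *Adgrv1* the control pools spanned more than the mean difference between DAPT and control. Of the 8, 6 had their highest control signal in experiment 1, all but *Ush1c* and *Clrn1*. *Cdh23* spanned 0.95 between control pools and 0.90 between DAPT pools, *Adgrv1* 0.69, *Pcdh15* 0.53 and *Whrn* 0.28 between control pools. The culture times, the pools and the tissue they held differ together between experiments and cannot be told apart. The mean signal of 8 epithelial genes was 10.91, 10.63 and 10.30 in the DAPT pools of experiments 1, 2 and 3, and 10.89, 10.76 and 10.43 in the control pools, highest in experiment 1 in both groups. That of the 12 HC markers was 8.30, 8.13 and 8.75 in DAPT pools, and 7.81, 7.47 and 7.93 in control pools. In the DAPT pools *Pcdh15*, *Ush1c*, *Whrn* and *Pdzd7* had the order of the epithelial genes, and in the control pools *Whrn* had it. The median difference of the 14 neuronal genes was 0.12, 0.07 and 0.06 in experiments 1, 2 and 3. The part of these marker levels in the differences of the 8 genes was not tested.

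**Figure D3:**
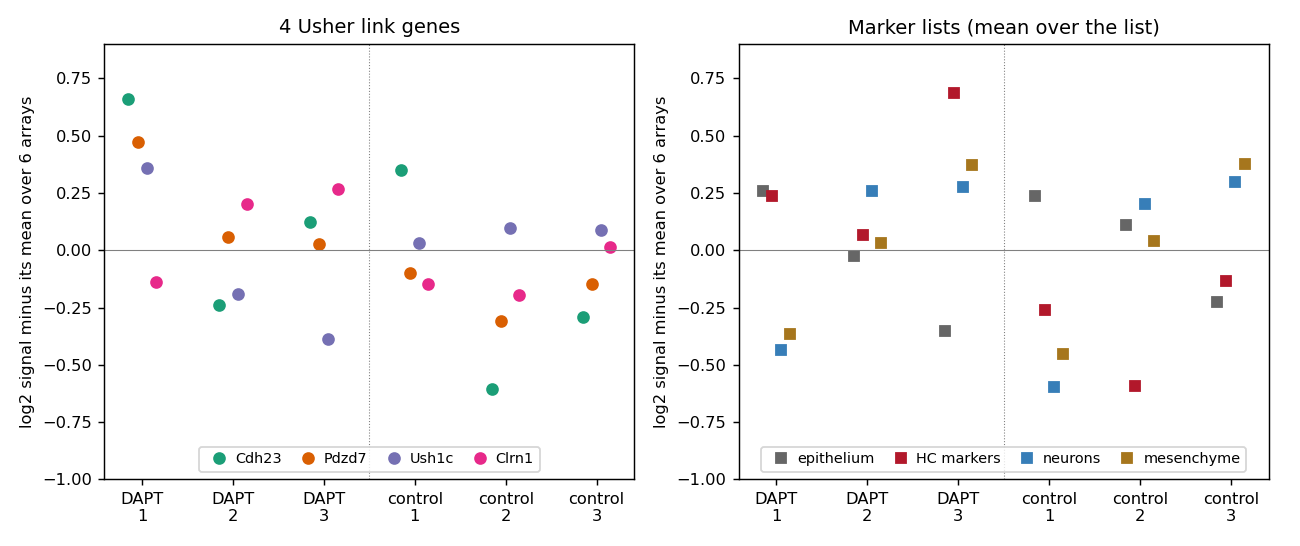
Log2 signal minus its mean over the 6 arrays for 4 Usher link genes (left) and for the mean of 4 marker lists (right), with the DAPT pools left of the dotted line and the control pools right of it. *Cdh23* is highest in the pools of experiment 1 of each group, as the epithelial list is, while neuronal and mesenchymal lists are lowest there. Of experiments 2 and 3, *Cdh23* is higher in 3 and the epithelial list in 2, in both groups.

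Over the 6 arrays the 8 genes fell into more than one pattern. As a description, with arrays that share experiments, the Pearson correlation of *Cdh23* was 0.89 with *Ush1g*, 0.84 with *Adgrv1*, 0.83 with *Pcdh15* and 0.80 with *Pdzd7*, and that of *Ush1g* with *Pdzd7* was 0.96. *Ush1c* went with *Whrn*, at 0.79, and against *Clrn1*, at −0.85. Centred on their own means and averaged, the 8 genes stood at 0.29, −0.05 and 0.00 in the DAPT pools and at 0.11, −0.23 and −0.13 in the control pools. Of 10124 other genes above the median signal, those most like this profile were *Barhl1*, at a correlation of 0.998 over the 6 arrays, *Triobp* at 0.996, *Fstl4* and *Ghdc* at 0.995, *Atp2c2* at 0.991, *Nampt* and *Ttc34* at 0.990 and *Mcoln3* at 0.988. The best of 10124 genes over 6 arrays can reach high correlations without a shared role. The profile was highest in experiment 1 in both groups, as the epithelial list was. From high to low it ran through experiments 1, 3 and 2 in both groups, whereas the epithelial list ran through 1, 2 and 3. The HC regulators, and the complex partners and bundle genes described below, had the order of the profile in both groups. What sets this order was not tested. *Barhl1* encodes a homeodomain transcription factor that HCs need to survive, *Triobp* an actin-bundling protein of stereocilia rootlets and *Mcoln3* a cation channel found in HCs. For *Fstl4*, *Ghdc*, *Atp2c2*, *Nampt* and *Ttc34* no HC role is given here, and whether they are expressed in HCs was not tested. *Barhl1* had 9.83, 8.83 and 8.93 in DAPT pools, against 9.20, 8.21 and 8.58 in control pools, a difference of 0.53 (standard error 0.09). *Nampt*, in contrast, differed by 0.05 (standard error 0.07), so that likeness in order did not require a like size.

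Genes that act beside the Usher proteins in the bundle showed where the 8 stand. Of 10 measured partners of the complex, 4 were higher at an unadjusted p under 0.05 and 0 lower, with a median of 0.15. Of all genes, 5.27% were higher and 2.59% lower at that level. *Myo7a*, the motor that carries USH1 proteins and a gene of Usher syndrome itself, had 9.76, 9.31 and 9.62 in the DAPT pools, against 9.43, 8.93 and 8.91 in the control pools. Its difference of 0.48 (standard error 0.10) was larger than that of any of the 8 genes, though the intervals overlap and the gap was not tested. *Myo15*, the motor that carries whirlin to stereocilia tips, differed by 0.37 (standard error 0.08). The bundler gene *Espn* differed by 0.31 and *Tprn*, which encodes the stereocilia-base protein taperin, by 0.22. The calcium channel gene *Cacna1d* had 0.28 (unadjusted p = 0.0729). *Eps8* at 0.08, *Adcy6* at 0.03, *Vezt* at −0.02, *Mpp1* at −0.02 and *Dock4* at −0.04 had unadjusted p between 0.308 and 0.832. The signs of *Vezt* and *Mpp1* turned when the arrays were quantile normalized again.

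In the list for the channel complex at the lower end of the tip link, 5 of 5 measured genes were higher at an unadjusted p under 0.05. Their median was 0.37, and of all genes 5.27% were higher and 2.59% lower at that level. *Lhfpl5*, whose product joins protocadherin 15 to the channel, had 8.83, 8.21 and 8.69 in the DAPT pools, against 7.93, 7.52 and 7.89 in the control pools, without overlap, a difference of 0.80 (standard error 0.08, adjusted p = 0.0954 in limma). The channel subunit genes *Tmc1* and *Tmc2* differed by 0.29 and 0.38, *Tmie*, which the channel needs, by 0.34, and *Loxhd1*, a gene of HC function, by 0.37. Of these 5 only *Lhfpl5* has a signal above the median of all genes. *Tmc1* and *Tmc2*, with group means of 6.42 or less, lay below 6.46, the 25th percentile of signal over all genes. *Loxhd1* is counted in the list, though its part in the channel complex was not tested. Without the block the count of higher genes in the list was 3. Of 20 genes of the bundle core and stereocilia tips, of which *Espn*, *Eps8* and *Myo15* also count as partners, 11 were higher and 0 lower, with a median of 0.25. *Ptprq* of this list, *Tmc1* of the channel list and *Myo7a* of the partners also count among the HC markers, so these lists are not separate. The largest differences were those of *Ptprq*, a membrane phosphatase of the bundle shaft, at 0.91 (standard error 0.13), and *Grxcr2*, at 0.75 (standard error 0.14). Without the block the 11 became 3. *Lhfpl5* and *Ptprq* are in the study's own list of genes raised by DAPT on these arrays. The counts of the channel and bundle lists are therefore no independent check.

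Epithelial cells of the gut tie their microvilli with a related complex, in which harmonin also takes part. Of its 5 other genes 0 had an unadjusted p under 0.05 in limma. Of all genes, 5.27% were higher and 2.59% lower at that level, so 0 of 5 is near the share of all genes. *Cdhr2* and *Cdhr5*, the cadherins that link microvilli, differed by 0.05 and 0.04, the scaffold gene *Anks4b* by 0.05, the motor gene *Myo7b* by 0.14 and the light chain gene *Calml4* by 0.10. The 5 genes lay between 6.00 and 8.84 in DAPT pools and between 5.93 and 8.67 in control pools. Of them only *Calml4* lay above 7.78, the median signal over all genes, and *Cdhr5* lay below 6.46, the 25th percentile. Dim signals limit what the lack of a difference shows. Of 6 genes related to the 8 by family or domain, 2 were higher at an unadjusted p under 0.05, against 5.27% of all genes. *Clrn2*, a relative of *Clrn1* that HCs need, differed by 0.48 (standard error 0.08) and the cadherin gene *Cdhr1* by 0.39 (standard error 0.10), while *Clrn3* had 0.04. *Clrn2* stood at 7.31, 7.77 and 8.15 in DAPT pools and at 6.83, 7.39 and 7.59 in control pools. Both *Clrn2* and *Clrn1* were lowest in experiment 1 among the DAPT pools. Usher proteins also serve photoreceptors, and of 8 measured photoreceptor markers 0 had an unadjusted p under 0.05, with a median of 0.05. This count too is near the share of all genes. The mean signal of these markers was dim, between 6.55 and 6.64 in DAPT pools and between 6.49 and 6.58 in control pools.

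**Figure D4:**
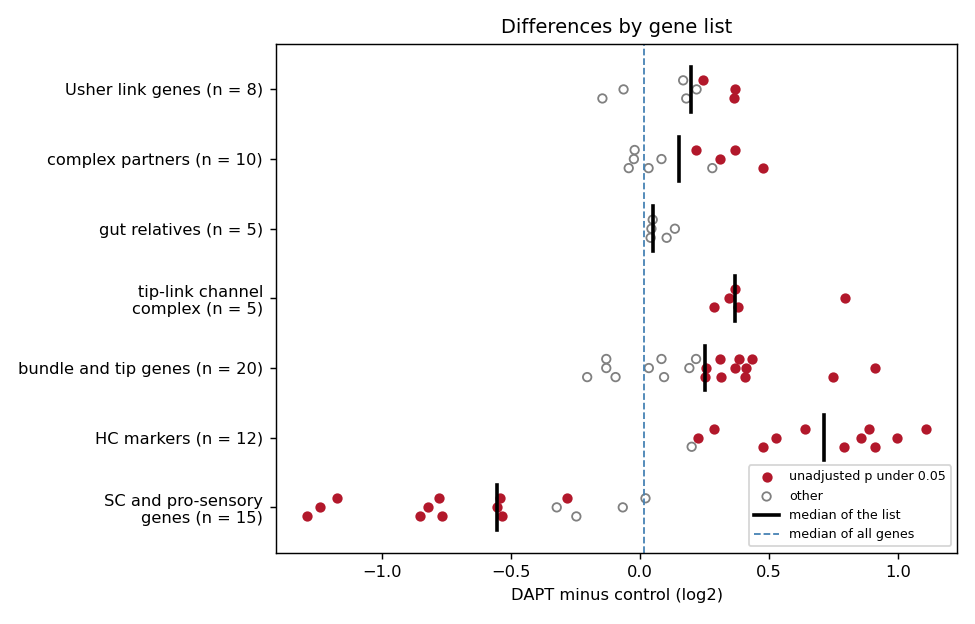
DAPT minus control (log2) of every measured gene in 7 lists. Red points have an unadjusted p under 0.05 in limma, black lines are list medians and the dashed line is the median of all 20259 genes. The median of the Usher link genes is 0.20, between that of the gut relatives at 0.05 and that of the HC markers at 0.72. The HC, SC and pro-sensory lists hold genes that the study itself listed as changed on these arrays. So do the channel list, with *Lhfpl5*, and the bundle list, with *Ptprq*.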

How the data were processed

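RNA of 6 pools of cochlear epithelium was hybridized to Affymetrix Mouse Exon 1.0 ST arrays. The deposited log2 signals, one per transcript cluster, are the authors' RMA values, made in Partek GS 6.6 from an extended meta-probe set and quantile-normalized. mm9 is the build in the submitters' notes. An extended set also holds exons of less support, and averaging over them may make a difference smaller. Array medians over all clusters lay between 6.297 and 6.364.

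Of 115830 clusters, 25539 had 1 gene in the array's annotation table, and 24941 of these took a current symbol through their gene identifier. A gene was represented by its cluster with the highest mean, which left 20259 genes. The comparison used lmFit and eBayes of limma 3.58.1 (R 4.3.3) with the experiment as a block, two-sided, with Benjamini-Hochberg adjustment over all genes at 0.05. The block follows the study's design of 1 control and 1 DAPT sample per experiment. As a check, the 2 arrays of an experiment deviated together from their group means, with correlations of 0.556, 0.434 and 0.513 over genes, against at most 0.009 for arrays of different experiments, so the numbers pair the samples. The p-values rest on 3 differences a gene, and so few arrays limit the precision.

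Tested on simulated data with 200 changed genes among 20259, the model found 94.4% of changes of 0.6 and 99.4% of changes of 1.2 at an unadjusted p under 0.05, and called 5.71% of unchanged genes, so unadjusted p-values may be slightly too small. Smaller changes were not simulated. The largest difference of the 8 genes was 0.37, so the share found at their size is not known. Tables used pandas 2.3.3 under Python 3.11.15 and figures matplotlib 3.10.9.

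The genes and the 17 other lists were chosen with earlier results of these data known, and no p was adjusted over a list. Named are the 8 genes, every measured gene of the lists of partners, gut relatives and channel complex, up to 6 genes of each other list with an unadjusted p under 0.05, and the 8 genes most like the mean profile. *Clrn3* was named after its value was seen. Of the listed partners 3 were not analysed here, and 1 gene each of the channel complex and of the related genes. Alternatives were a fit with no block, array weights, the mean over a gene's clusters, 2 filters on dim genes, median centring, a second quantile normalization, a robust prior with trend, plain one-way (which the study names) and paired comparisons, and each experiment or array left out.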

Additional observations from a re-analysis of the deposited data

Results flagged for a closer look

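In 3 of the 8 genes the experiments, which differ in culture time, moved in opposite directions with DAPT. Of all genes, 70.4% did not go in 1 direction in the 3 experiments, a larger share than among the 8. *Ush1c* was higher with DAPT in experiment 1 (23 hours), by 0.33, and lower in experiments 2 (19 hours) and 3 (24 hours), by 0.29 and 0.47, so that the 3 differences spanned 0.803. *Adgrv1* had −0.21 in experiment 1, and 0.26 and 0.45 in experiments 2 and 3, a span of 0.657. *Whrn* had 0.03 in experiment 1, and −0.10 and −0.11 in experiments 2 and 3, a span of 0.140. Each experiment holds 1 pair of pools, so the difference between experiments was not tested.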

How the results depend on the processing

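The number of arrays and dim signals limit these results, and no depth is defined for an array. Without the replicate block, 394 genes were higher and 199 lower by the unadjusted p. The count of genes higher was 1 for the Usher link genes, 1 for partners, 0 for related genes, 3 for the channel complex, 3 for the bundle list and 6 for HC markers. The median difference of the 8 genes was 0.20 with and without the block. In the plain one-way comparison 490 genes were higher and 215 lower, and the counts were 0, 0, 0, 3, 1 and 4 in the same order of lists, and 5 for HC regulators. In the plain paired comparison they were 2 for the Usher link genes (*Pdzd7* was lost), 2 for partners, 1 for related genes, 2 for the channel complex, 6 for the bundle list and 7 for HC markers. With array weights 1629 genes were higher and 914 lower, 30 had an adjusted p under 0.05, and 5 of the Usher link genes were higher.

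Genes with an adjusted p under 0.05 numbered 6 with a trend and robust prior, 3 after a second quantile normalization, 6 with the mean of all clusters, 26 among genes above the median signal and 17 above its 25th percentile. Above the median signal, 471 genes were higher and 333 lower, 0 related genes and 1 of the channel complex, whose count was 3 above the 25th percentile, with fewer genes tested. *Vezt* turned to 0.015 after a second quantile normalization and 0.002 with array weights, *Mpp1* to 0.010 after a second quantile normalization and *Cdhr5* to −0.003 with array weights. The cause was not tested.

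Leaving out an experiment, or 1 array in a fit with no block, gave 265 to 1359 genes higher and 136 to 946 lower. Of the Usher link genes 0 to 4 were higher and 0 to 1 lower, with a median of 0.121 to 0.322. Partners counted 0 to 4, related genes 0 to 2, the channel complex 2 to 5, the bundle list 0 to 11 and HC markers 4 to 11. Differences lay between −0.383 and 0.019 for *Ush1c*, −0.192 and 0.020 for *Whrn*, −0.120 and 0.072 for *Vezt*, −0.178 and 0.068 for *Mpp1*, −0.114 and 0.038 for *Dock4*, −0.013 and 0.078 for *Adcy6*, 0 and 0.097 for *Cdhr5*, and −0.274 and 0.058 for *Ush1c* minus *Whrn*. *Cdh23* kept 0.338 to 0.390 with any 1 experiment left out, but in the fit with no block it was 0.124 without the DAPT array of experiment 1, 0.153 without the control array of experiment 2, 0.575 without the DAPT array of experiment 2 and 0.630 without the control array of experiment 1, with p of 0.0537 to 0.676 over the 6 arrays left out. *Pcdh15* lay between 0.052 and 0.354, *Ush1g* between 0.150 and 0.327, *Pdzd7* between 0.226 and 0.470, *Clrn1* between 0.131 and 0.345 and *Adgrv1* between 0.025 and 0.373. *Pdzd7* had p above 0.05 without the DAPT array of experiment 1 (0.0775) and without the control arrays of experiments 2 (0.108) and 3 (0.0617). Another cluster per gene could not be tried for the 8 genes, which have 1 each.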
